A study of Mus musculus with 12 samples.

Results

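The genes described here are the adhesion G protein-coupled receptors, whose symbols start with Adgr, and the receptors and receptor-like proteins still known by a Gpr number. They were chosen by symbol alone, as protein-coding genes of GENCODE mouse release 21. That gave 89 of the 25904 genes in the deposited table, 24 with an Adgr symbol and 65 with a Gpr number. A gene was tested where its normalized count, that is its reads divided by the library's size factor, reached 10 in at least 3 of the 12 libraries. Of the 89 members, 36 passed (12 adhesion and 24 numbered) and 53 did not. A member that is high in 1 group only passes through that group, so counts over the 36 are descriptions and not evidence about the family.

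RNA was sequenced from sorted cells of the mouse central nervous system in 4 groups of 3 libraries, all from C57BL/6 mice, to compare cells with and without Tgfbr2, the type 2 receptor for TGF-beta. WT microglia came from Tgfbr2 fl/fl mice and KO microglia from Cx3cr1 CreER/+ Tgfbr2 fl/fl mice, so KO cells also carried the CreER insertion in 1 Cx3cr1 allele and WT cells did not. Both received 3 daily doses of 5 mg tamoxifen, and 18 to 22 days afterwards their brains and spinal cords were taken for sorting. WT and KO macrophages descended from bone marrow of the same 2 genotypes, transplanted into irradiated Cx3cr1 CreER/+ R26 DTA/+ recipients, whose own microglia tamoxifen depletes through diphtheria toxin. Tamoxifen was given 6 weeks after transplant, and the cells that refilled the tissue were sorted 18 to 22 days later. Only the macrophages came from irradiated and transplanted recipients whose own microglia were depleted. Cell source and that procedure cannot be told apart in any comparison of macrophages with microglia, or of their KO differences. Below, origin therefore stands for both together. All cells were live, Ly6C-negative and CD11b-positive. WT cells were taken from the F4/80-low gate and KO cells from the F4/80-high gate, so gate, CreER allele and deletion cannot be told apart in any comparison of KO with WT. F4/80 is the protein of Adgre1, a member of the family described here. A library combined the cells of 1 to 5 mice, and p-values measure the spread between such pools, estimated for each gene over all 4 groups together.

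Adhesion receptors carry a long extracellular region that binds matrix or neighbouring cells, and many cut themselves at a juxtamembrane site so that a tethered peptide can switch on the membrane-spanning part. The numbered receptors are a mixed group. Some sense lipids, metabolites or protons, some are orphans without an agreed ligand, and some are multi-pass proteins of the Golgi or lysosome. In the brain, Adgrg1 and Gpr34 are used as markers of resident microglia, whereas Adgre4 and Adgre5 are better known from circulating and peripheral myeloid cells.

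The letters upstream of transcript starts are shown to compare genes that moved in opposite directions in KO microglia. They are the start-proximal DNA of 2 members that fell and 2 that rose, those with the largest changes among the members with a RefSeq window. Each is the 250 bases upstream of a RefSeq transcript start (build GRCm38.p6), written 5′ to 3′ along the gene's own strand. Capitals mark matches to 3 motifs searched on both strands: AGGAAGT, of the type bound by ETS factors such as PU.1, TGAGTCA, bound by AP-1, and CAGACA, which holds the core bound by Smad proteins downstream of TGF-beta. The motifs do not overlap one another here. Adgrg1 has a pair of starts and fell in KO microglia, as did Gpr84. Adgre4 and Gpr65 rose. By the GENCODE gene bounds, both Adgrg1 windows and part of the Gpr84 window, with its match, lie inside the gene. The Adgre4 and Gpr65 windows lie directly before the gene.
Adgrg1 upstream window 1, chr8:94976859-94977108, plus strand: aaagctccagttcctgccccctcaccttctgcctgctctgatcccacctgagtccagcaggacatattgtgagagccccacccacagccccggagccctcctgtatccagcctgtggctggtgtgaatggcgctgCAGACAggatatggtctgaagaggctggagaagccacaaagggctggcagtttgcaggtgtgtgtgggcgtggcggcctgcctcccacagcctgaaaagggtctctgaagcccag
Adgrg1 upstream window 2, chr8:94984149-94984398, plus strand: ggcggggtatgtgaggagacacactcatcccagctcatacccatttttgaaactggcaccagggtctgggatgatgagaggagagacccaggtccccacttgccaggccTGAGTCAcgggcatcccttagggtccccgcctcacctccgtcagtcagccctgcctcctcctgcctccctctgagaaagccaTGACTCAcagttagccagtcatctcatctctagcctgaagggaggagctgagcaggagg
Gpr84, chr15:103310439-103310688, minus strand: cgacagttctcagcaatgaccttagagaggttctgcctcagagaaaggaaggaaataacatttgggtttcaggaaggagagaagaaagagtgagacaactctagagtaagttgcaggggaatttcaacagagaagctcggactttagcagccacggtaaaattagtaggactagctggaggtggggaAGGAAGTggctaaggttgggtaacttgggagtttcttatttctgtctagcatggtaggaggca
Adgre4, chr17:55749734-55749983, plus strand: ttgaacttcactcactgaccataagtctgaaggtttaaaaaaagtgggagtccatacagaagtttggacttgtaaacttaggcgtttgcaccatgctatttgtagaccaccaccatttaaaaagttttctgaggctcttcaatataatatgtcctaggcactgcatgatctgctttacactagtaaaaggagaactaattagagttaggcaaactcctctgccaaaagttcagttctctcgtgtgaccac
Gpr65, chr12:98268385-98268634, plus strand: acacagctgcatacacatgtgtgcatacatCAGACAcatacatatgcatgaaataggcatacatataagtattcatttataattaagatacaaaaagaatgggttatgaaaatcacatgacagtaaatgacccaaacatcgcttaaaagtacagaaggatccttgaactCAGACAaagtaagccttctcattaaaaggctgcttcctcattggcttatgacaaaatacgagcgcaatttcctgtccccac

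The Adgrg1 windows held CAGACA beginning 115 bases before the first start, and TGAGTCA on both strands before the second start, the nearer match at 59 bases. Gpr84 held AGGAAGT at 63 bases, and Gpr65 held CAGACA at 220 and 81 bases. None of the 3 motifs was in the Adgre4 window. Among all 32851 windows of the same length, AGGAAGT occurred in 7.69%, TGAGTCA in 4.46% and CAGACA in 17.1%. Among the 41 windows of the 29 tested members with an entry, 6 held AGGAAGT, 2 held TGAGTCA and 8 held CAGACA. Base composition also differed, with 60.8% and 59.2% G or C in the Adgrg1 windows, 46% in Gpr84, 39.6% in Adgre4 and 36.8% in Gpr65, against a median of 52.4% over all windows. A match is a description of letters and not a binding site.

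Gene reads per library ran from 2615404 to 6364994, and a single read stood for 0.718 to 1.6 normalized counts. Tgfbr2 reads fell only in part, from 2898 ± 356 normalized counts (SD, n = 3) for WT to 2193 ± 100 for KO microglia, and for macrophages from 3303 ± 267 to 2235 ± 209. The labels do not place the deleted exons, and a count over the whole gene includes reads outside them. KO macrophage replicate 1, the shallowest library, stood apart, with correlations of 0.935 and 0.936 to its group. The Y-linked gene Ddx3y was at 470 to 508 in all 3 KO microglia pools and was high in 1 pool of each other group, so the sexes in the pools differed. Summed levels of 9 microglia markers were 95854 to 121453 across WT microglia, 16227 to 17453 across KO microglia, 38004 to 41278 across WT macrophages and 16776 to 17847 across KO macrophages. Summed levels of 7 markers of other CNS macrophages were 1335 to 1841, 109999 to 123119, 129278 to 145001 and 96753 to 115791 in the same order. Apoe made up most of this second sum, with a mean of 129838 in WT macrophages. Each of its other markers, such as Mrc1 (4356 in WT macrophages, 16082 in KO microglia, 12182 in KO macrophages), averaged lower in WT macrophages than in either KO group. In the KO groups most of the microglia marker sum was Csf1r, at means of 11462 in microglia and 9979 in macrophages. Some single markers lay far apart between KO microglia and KO macrophages, such as Tmem119 (2.17 and 306), Olfml3 (5.06 and 332) and Sall1 (338 and 11.5). The microglia sum also includes Cx3cr1, which held the CreER insertion in KO cells only. Neutrophil markers summed to at most 13.7 in any library. In bulk samples, fewer cells of a type and less RNA per cell cannot be told apart, here and in every result that follows.

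Per kilobase of exon, Gpr34 was the most abundant member of WT microglia, at a level of 2279 ± 504 normalized counts per kilobase (SD, n = 3). Adgrg1 at 513 ± 57.5 and Adgre1 at 435 ± 46.0 followed and lay within about 1 SD range of each other, ahead of Gpr183 at 266 ± 8.4. In KO microglia the order of the same quantity was Adgre1 at 1193 ± 63.7, Gpr65 at 484 ± 31.6, Gpr34 at 254 ± 19.8, Adgre4 at 184 ± 4.2 and Adgre5 at 82.9 ± 8.8. WT macrophages were led by Adgre1 at 802 ± 67.6, with Gpr34 and Gpr65 level at 595 ± 39.3 and 595 ± 39.1 and Gpr183 at 183 ± 17.3. KO macrophages were led by Adgre1 at 1171 ± 64.7, Gpr65 at 690 ± 63.3, Adgre5 at 356 ± 67.1, Gpr34 at 269 ± 9.6 and Adgre4 at 169 ± 22.2. Thus Adgrg1 ranked high in WT microglia alone of the 4 groups, and Adgre4 and Adgre5 entered the leading members of the KO groups. All further levels are normalized counts, not corrected for length, and are compared only between groups for the same gene.

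Between KO and WT microglia, 26 of the 36 tested members passed the test (limma, Benjamini-Hochberg adjusted p under 0.05 over all 12519 genes tested), 16 higher and 10 lower in KO. The 16 include Adgre1, whose protein was the gate. Over all genes tested, 42.5% passed, 21.9% higher and 20.6% lower. The KO and WT microglia libraries did not overlap for 28 of the 36 members, against 55.2% of all genes. The members' median absolute log2 difference was 1.90, or 1.88 with the 3 members without a read in WT microglia set at their bounds, against 0.41 for all genes. In macrophages, 18 members passed between KO and WT, 10 higher and 8 lower, against 31.4% of all genes (16% higher and 15.4% lower), and 23 members had macrophage genotypes that did not overlap, against 45.2%. The members' median absolute log2 difference there was 0.96 against 0.34. The 2 KO comparisons share no library. Of the members, 9, the gated Adgre1 among them, were higher and 6 lower in KO in both. Gpr160 was higher in KO microglia but lower in KO macrophages, and Adgrl1 was the reverse. Another 9 passed the higher or lower test in microglia alone, Adgrg5 passed in macrophages alone, and 9 passed in neither. The share of all genes with each joint pattern was not computed, so these joint counts are a description only. The difference between the 2 KO differences, tested as an interaction, passed for 17 of the 36, 9 with a relatively higher value in KO macrophages and 8 with a lower one, against 25.8% of all genes (13% and 12.9%).

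**Figure D1:**
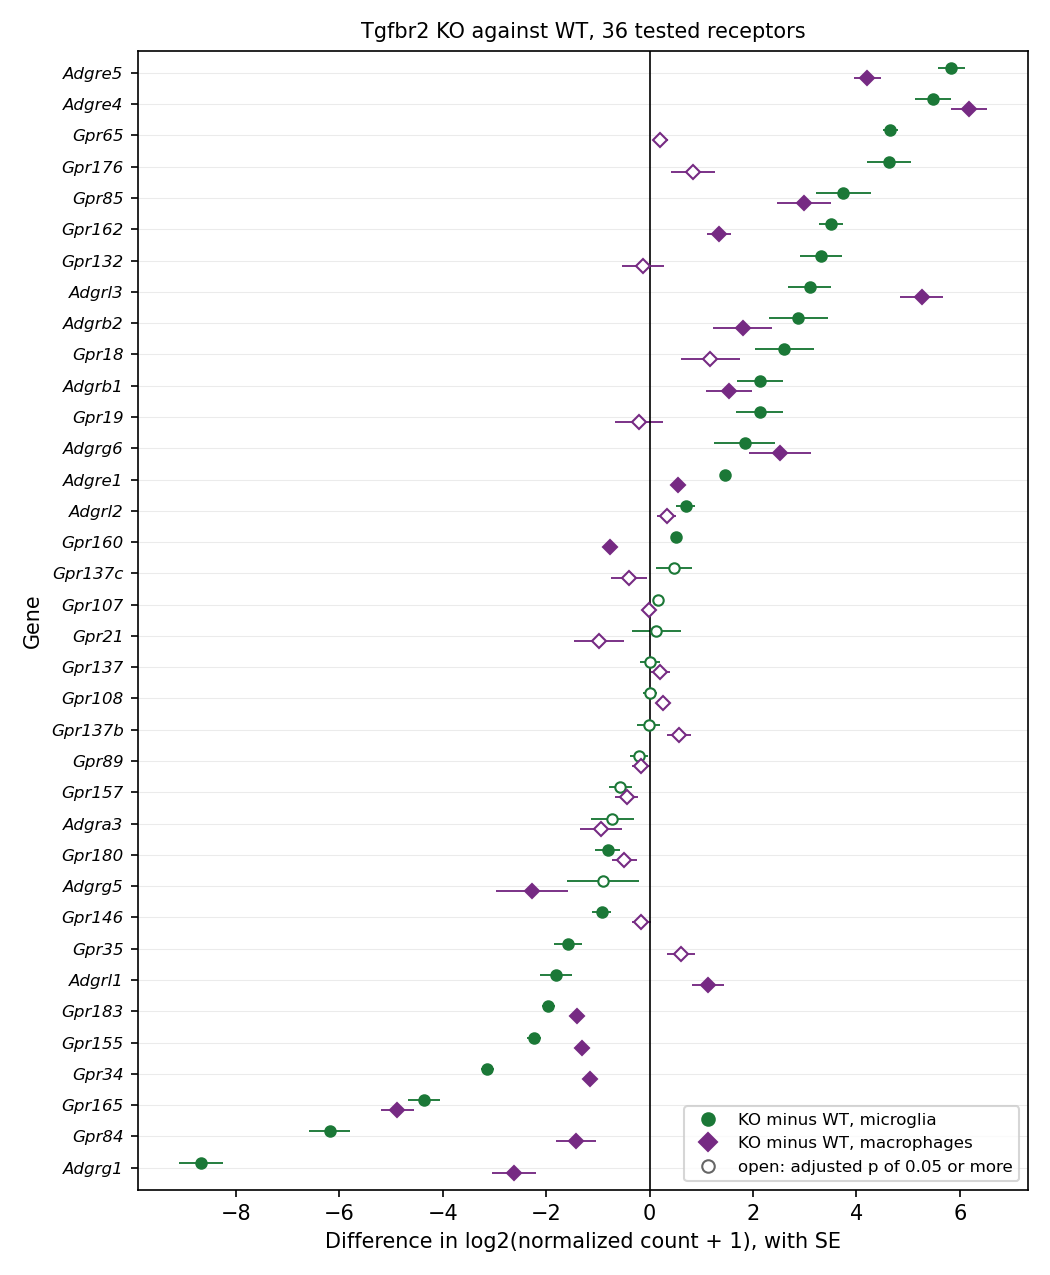
Log2 difference between KO and WT, with its standard error, for the tested members in microglia and in macrophages (limma). Open symbols mark an adjusted p of 0.05 or more. Adgrg1 and Gpr84 lie far to the low side in microglia, Adgre4 and Adgre5 to the high side in both cell types, and Gpr65 to the high side in microglia only among its filled symbols.

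The 3 Adgre genes, which encode adhesion receptors of myeloid cells, were all higher in KO cells of both origins. Adgre1 (ENSMUSG00000004730, GRCm38 chr17:57358691-57483527) encodes F4/80 itself. Its levels were 1575, 1286 and 1367 across WT microglia, 3830, 3673 and 4082 across KO microglia, 2559, 2402 and 2835 across WT macrophages, and 3898, 3928 and 3551 across KO macrophages. KO means were 2.74 times the WT mean in microglia and 1.46 times in macrophages, without overlap, but because the gate selected on the F4/80 protein these ratios are given as a description and not as a test. WT microglia and WT macrophages were both gated low, and Adgre1 was 1.84 times higher in the macrophages (log2 difference 0.88 ± 0.09 SE, adjusted p = 1.73e-06). Both KO groups were gated high and overlapped (log2 difference -0.03 ± 0.09, adjusted p = 0.904).

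Adgre4 (ENSMUSG00000032915, chr17:55749984-55853662), an adhesion receptor of macrophages and monocytes, was near its lower limit of counting in both WT groups. WT microglia had 13.2, 24.5 and 7.24 and WT macrophages 10.9, 3.81 and 8.23. KO microglia had 637, 629 and 658, and KO macrophages 504, 657 and 604. Every KO library was thus far above every WT library, whatever the origin of the cells. The log2 difference was 5.48 ± 0.35 in microglia (42.8-fold, adjusted p = 4.07e-09) and 6.18 ± 0.35 in macrophages (76.9-fold, adjusted p = 7.55e-09).

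Adgre5 (ENSMUSG00000002885, chr8:83723251-83741326), which encodes the leukocyte receptor CD97, stepped up with both origin and genotype. Its levels were 3.53, 7.73 and 3.10 across WT microglia, 59.2, 95.3 and 61.7 across WT macrophages, 306, 347 and 281 across KO microglia, and 1626, 1219 and 1166 across KO macrophages. No 2 of the 4 groups overlapped. KO microglia were 65.1-fold above WT (log2 difference 5.84 ± 0.25, adjusted p = 5.52e-11), and KO macrophages were 18.6-fold above WT (4.21 ± 0.25, adjusted p = 1.37e-08). Adgre5 shares 895 exonic bases with Ddx39 on the other strand, whose mean level was 114, and the strand setting of the counting is not given in the sources used here. Monocyte markers also rose between these groups. The 4 of them that were listed summed to 21.7 to 46.4 across WT microglia, 114 to 146 across KO microglia, 156 to 209 across WT macrophages and 160 to 340 across KO macrophages, nearly all of it Ccr2, with Ly6c2 at 0 reads in all groups but KO macrophages. Their part in the Adgre4 and Adgre5 results was not tested.

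**Figure D2:**
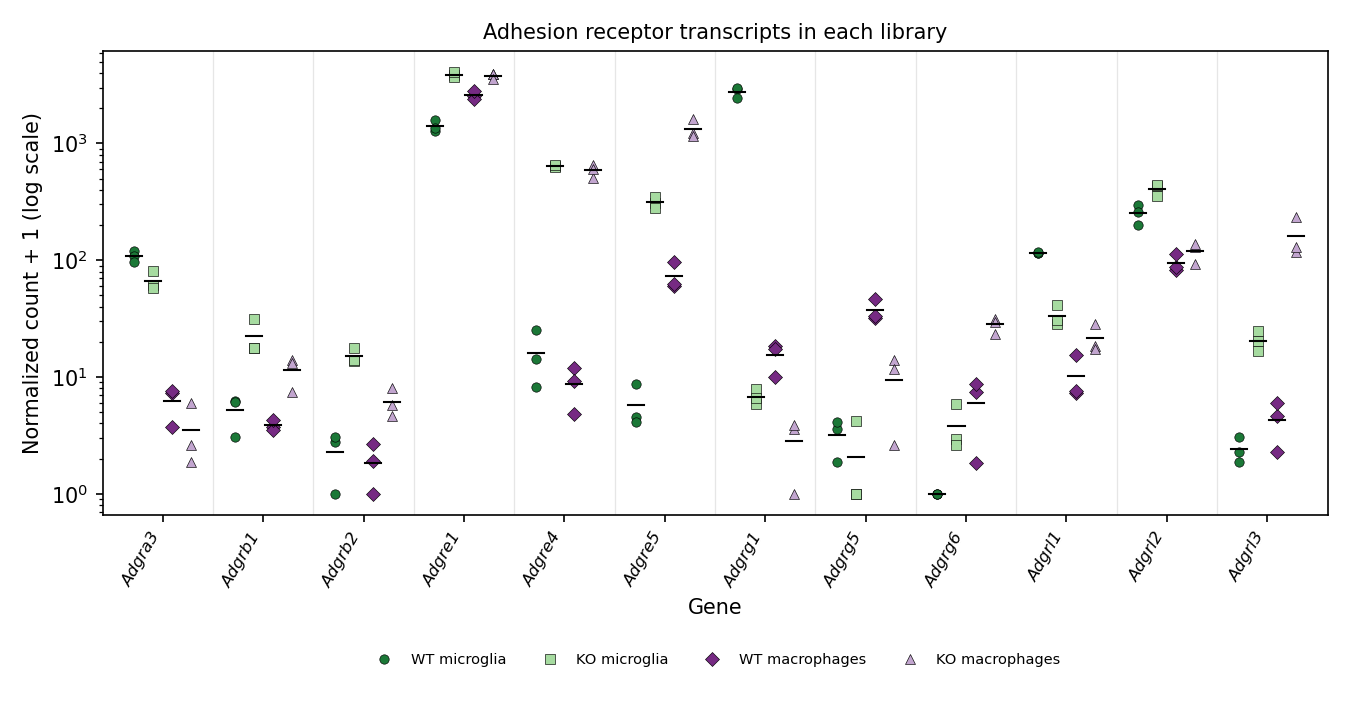
Normalized counts (log axis) of the tested adhesion receptors in each of the 12 libraries, by group. Points are libraries and bars are group means. The KO points of Adgre4 and Adgre5 lie above all WT points, and Adgrg1 is high in WT microglia only.

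Adgrg1 (ENSMUSG00000031785, chr8:94974751-95014217) encodes the receptor also called GPR56, which binds type III collagen and transglutaminase and is a marker of resident microglia. WT microglia had 2913, 3008 and 2427, whereas KO microglia had 4.91, 6.88 and 5.63. WT macrophages held 17.3, 16.5 and 9.05, and KO macrophages 0, 2.62 and 2.87. WT microglia thus stood alone, and each lower group was separate from the others. The fall in KO microglia was 479-fold (log2 difference -8.68 ± 0.43, adjusted p = 2.08e-10), and KO macrophages were 7.81-fold below WT macrophages (-2.62 ± 0.43, adjusted p = 0.000262). WT macrophages, which carry intact Tgfbr2, were 195-fold below WT microglia (-7.55 ± 0.43, adjusted p = 2.12e-09). KO macrophages were 3.17-fold below KO microglia at a few reads per library (adjusted p = 0.0361), a call that was lost without any 1 of the KO microglia libraries, replicates 1, 2 and 3 in turn (log2 difference from -1.58 to -1.38, adjusted p = 0.0717, 0.122 and 0.0913), with limma voom on the recovered reads (adjusted p = 0.301), with only the 2 KO groups in the fit (adjusted p = 0.231), with pseudocount 5 (adjusted p = 0.0709) and with Ddx3y as a covariate (adjusted p = 0.119).

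The other tested Adgrg genes were low throughout. Adgrg5 (ENSMUSG00000061577), an orphan whose gene lies next to Adgrg1 on chromosome 8, averaged 36.3 ± 8.2 in WT macrophages and 8.49 ± 6.1 in KO macrophages (log2 difference -2.28 ± 0.69, adjusted p = 0.0212), and at most 2.19 in either microglia group. It thus went opposite to Adgrg1 between WT macrophages and WT microglia (3.60 ± 0.69, adjusted p = 0.000701). The KO difference in macrophages was not called without WT macrophage replicate 1 or 2 or without KO macrophage replicate 1 (-2.38, -2.11 and -1.51, adjusted p = 0.0502, 0.0759 and 0.0788). Adgrg6, best known from Schwann cell myelination, had no read across WT microglia and averaged 2.83 ± 1.8 across KO microglia, 4.94 ± 3.6 across WT macrophages and 27.2 ± 4.3 across KO macrophages. It was 5.51-fold higher in KO than WT macrophages (2.52 ± 0.60, adjusted p = 0.00473). In microglia it was at least 2.63-fold higher in KO (adjusted p = 0.0212). That call was lost without KO microglia replicate 1 (log2 difference 1.48, adjusted p = 0.0967) and with pseudocount 5 (0.62, adjusted p = 0.118).

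The latrophilins, encoded by Adgrl genes, bind teneurins and FLRT proteins on neighbouring cells. The 3 tested members each had a different order of groups. Adgrl1 (ENSMUSG00000013033, chr8:83900105-83941954) was at 114, 113 and 116.96 across WT microglia, 27.5, 40.3 and 29.7 across KO microglia, 14.6, 6.35 and 6.58 across WT macrophages, and 27.2, 17.5 and 16.5 across KO macrophages. WT microglia were above all other libraries, and KO macrophages were above WT macrophages. Adgrl1 therefore fell in KO microglia (3.53-fold, log2 difference -1.81 ± 0.31, adjusted p = 0.000208) and rose in KO macrophages (2.22-fold, 1.13 ± 0.31, adjusted p = 0.0119). The rise was lost without WT macrophage replicate 2 or 3 (0.94 and 0.97, adjusted p = 0.0522 and 0.0505), with limma voom (adjusted p = 0.0523) and with only the 2 macrophage groups in the fit (adjusted p = 0.0814). Adgrl1 shares 1107 exonic bases with Gm10644 on the opposite strand, whose mean level was 21.

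Adgrl2 (ENSMUSG00000028184, chr3:148815583-148990555) was at 295, 259 and 200 across WT microglia, 351, 428 and 436 across KO microglia, 81.9, 86.4 and 113 across WT macrophages, and 91.2, 128 and 136 across KO macrophages. All 6 microglia libraries were above all 6 macrophage libraries. It rose 1.61-fold in KO microglia (0.70 ± 0.18, adjusted p = 0.00524), while the KO and WT macrophages overlapped (0.33 ± 0.18, adjusted p = 0.181). Adgrl3 (ENSMUSG00000037605, chr5:81020138-81825133) was at 0.88, 1.29 and 2.07 across WT microglia, 15.7, 23.6 and 19.3 across KO microglia, 3.64, 1.27 and 4.94 across WT macrophages, and 116.8, 128 and 233 across KO macrophages. KO macrophages were the only group above 100, and KO microglia lay between them and the WT groups. The KO difference was 3.10 ± 0.42 on the log2 scale in microglia (13.8-fold, adjusted p = 1.93e-05) and 5.27 ± 0.42 in macrophages (48.5-fold, adjusted p = 2.07e-07).

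Adgra3 (ENSMUSG00000029090, chr5:49959956-50059006), an adhesion receptor linked to planar cell polarity, separated microglia from macrophages. It was at 120, 108 and 96.3 across WT microglia, 59.9, 57.0 and 80.4 across KO microglia, 2.73, 6.35 and 6.58 across WT macrophages, and 1.60, 0.87 and 5.03 across KO macrophages. KO microglia were below WT microglia in every library, but the difference did not pass the test (-0.72 ± 0.41, adjusted p = 0.179). That test used a spread shared with the macrophage groups, which held 16 (WT) and 9 (KO) reads. The missing call therefore does not rest on the spread between microglia pools alone. Macrophages were 20.7-fold lower than microglia in WT cells (-4.20 ± 0.41, adjusted p = 9.25e-07) and 26.3-fold lower in KO cells (-4.42 ± 0.41, adjusted p = 4.28e-06).

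The Adgrb genes are abundant in neurons, and Adgrb1 is also known as a receptor for engulfing dying cells. Adgrb1 averaged 4.17 ± 1.8 in WT and 21.4 ± 7.9 in KO microglia (2.13 ± 0.44, adjusted p = 0.00104) and 2.85 ± 0.39 and 10.6 ± 3.6 in WT and KO macrophages (1.53 ± 0.44, adjusted p = 0.0156). Adgrb2 averaged 1.28 ± 1.1 and 14.1 ± 2.2 in microglia (2.88 ± 0.57, adjusted p = 0.000738) and 0.85 ± 0.83 and 5.12 ± 1.7 in macrophages. The macrophage ratio for Adgrb2 was 5.23 with a 95% counting interval of 1.5 to 28 (adjusted p = 0.0261). As a sum, neuronal markers were higher in the same groups. Rbfox3 did not rise in macrophages, averaging 4.07 ± 2.4 in WT and 3.94 ± 4.7 in KO cells. The 6 neuronal markers summed to 14.1 to 23.2 across WT microglia, 94.9 to 137 across KO microglia, 31.9 to 52.1 across WT macrophages and 76.8 to 138 across KO macrophages, with Syt1 without a read across WT microglia. Their part in the rises of Adgrb1, Adgrb2 and Adgrl3 was not tested. In macrophages the Adgrb1 call was lost without KO replicate 2 (1.36, adjusted p = 0.0572), and that of Adgrb2 without WT replicate 1 or 2 or KO replicate 2 (1.88, 1.41 and 1.59, adjusted p = 0.053, 0.102 and 0.0837). With no filter on low values both macrophage calls were lost too (adjusted p = 0.0542 for Adgrb1 and 0.0618 for Adgrb2).

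Among receptors for lipids and metabolites, 5 of 10 members were tested, and 4 of the 5 were lower in KO microglia, as were 20.6% of all genes. Gpr34 (ENSMUSG00000040229, chrX:13632089-13640858), a receptor for lysophosphatidylserine and a microglia marker, was at 5541, 5184 and 3565 across WT microglia, 505, 509 and 579 across KO microglia, 1268, 1153 and 1312 across WT macrophages, and 570, 576 and 539 across KO macrophages. WT microglia were highest, WT macrophages intermediate, and the 2 KO groups overlapped at the bottom. The fall was 8.97-fold in microglia (-3.14 ± 0.13, adjusted p = 2.67e-11) and 2.22-fold in macrophages (-1.15 ± 0.13, adjusted p = 8.03e-06). The lowest WT microglia library, replicate 3, was the 1 WT microglia pool with high Ddx3y (436), and Gpr34 is X-linked. With Ddx3y as a covariate the differences were -3.05 (adjusted p = 7.54e-10) and -1.17 (adjusted p = 1.09e-05).

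Gpr183 (ENSMUSG00000051212, chr14:121952551-121965195), a receptor that guides immune cells along oxysterol gradients, had the same order of groups. It was at 780, 782 and 739 across WT microglia, 170, 210 and 214 across KO microglia, 540, 475 and 574 across WT macrophages, and 235, 203 and 167 across KO macrophages. Every KO library was below every WT library. KO cells were 3.87-fold lower in microglia (-1.96 ± 0.13, adjusted p = 4.77e-09) and 2.63-fold lower in macrophages (-1.40 ± 0.13, adjusted p = 8.01e-07).

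Gpr84 (ENSMUSG00000063234, chr15:103308235-103310612), a receptor for medium-chain fatty acids on myeloid cells, was at 228, 179 and 198 in WT microglia and at 0.98, 4.92 and 0.80 in KO microglia. WT macrophages had 51.0, 41.9 and 52.7, and KO macrophages 12.8, 24.4 and 16.5. All 4 groups were separate, with KO microglia lowest. The fall was 90.3-fold in microglia (-6.19 ± 0.39, adjusted p = 3.63e-09) and 2.71-fold in macrophages (-1.43 ± 0.39, adjusted p = 0.0116). It was the only member lower in macrophages than in microglia among WT cells (-2.03 ± 0.39, adjusted p = 0.000677) and higher among KO cells (2.73 ± 0.39, adjusted p = 0.000196).

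Gpr35 (ENSMUSG00000026271, chr1:92950865-92986391), for which kynurenic acid has been proposed as a ligand, was at 63.5, 67.0 and 91.1 across WT microglia, 38.3, 15.7 and 22.5 across KO microglia, 77.4, 49.6 and 66.7 across WT macrophages, and 102, 96.9 and 93.4 across KO macrophages. KO microglia were lowest and KO macrophages highest. The fall in KO microglia was 2.89-fold (-1.57 ± 0.27, adjusted p = 0.000225), and the macrophage difference did not pass (0.61 ± 0.27, adjusted p = 0.101). Gpr18, an orphan or lipid receptor of lymphoid and myeloid cells, was low throughout, at 0.69 ± 1.2 across WT microglia, 8.55 ± 4.0 across KO microglia, 6.20 ± 2.2 across WT macrophages and 15.9 ± 8.3 across KO macrophages. Its ratio between KO and WT microglia was 11.8 with a 95% counting interval of 2.98 to 103 (adjusted p = 0.00177).

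Of the 4 proton-sensing receptors, which report extracellular acidity, Gpr65 and Gpr132 were tested. Gpr65 (ENSMUSG00000021886, chr12:98268635-98276644) raises cyclic AMP when the surroundings turn acid. It was at 34.4, 32.2 and 52.8 across WT microglia, 969, 957 and 1076 across KO microglia, 1138, 1270 and 1285 across WT macrophages, and 1493, 1511 and 1276 across KO macrophages. WT microglia alone were low. KO microglia were 25.1-fold above WT (4.65 ± 0.14, adjusted p = 1.01e-12), and WT macrophages were 30.9-fold above WT microglia (4.95 ± 0.14, adjusted p = 9.24e-13). KO and WT macrophages overlapped (0.21 ± 0.14, adjusted p = 0.286). Its antisense neighbour Gm47566, which shares 511 exonic bases, was not among the listed genes.

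Gpr132, a receptor for acid and oxidized lipids, was also lowest in WT microglia, at a much lower level than Gpr65. It averaged 0.29 ± 0.51 across WT microglia, 11.2 ± 0.72 across KO microglia, 31.2 ± 9.0 across WT macrophages and 28.9 ± 9.8 across KO macrophages. The ratio between KO and WT microglia was 32.5, with a 95% counting interval of 5.48 to 1316 on 1 read in WT microglia (adjusted p = 7.43e-06). The macrophage genotypes overlapped (-0.13 ± 0.41, adjusted p = 0.846).

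**Figure D3:**
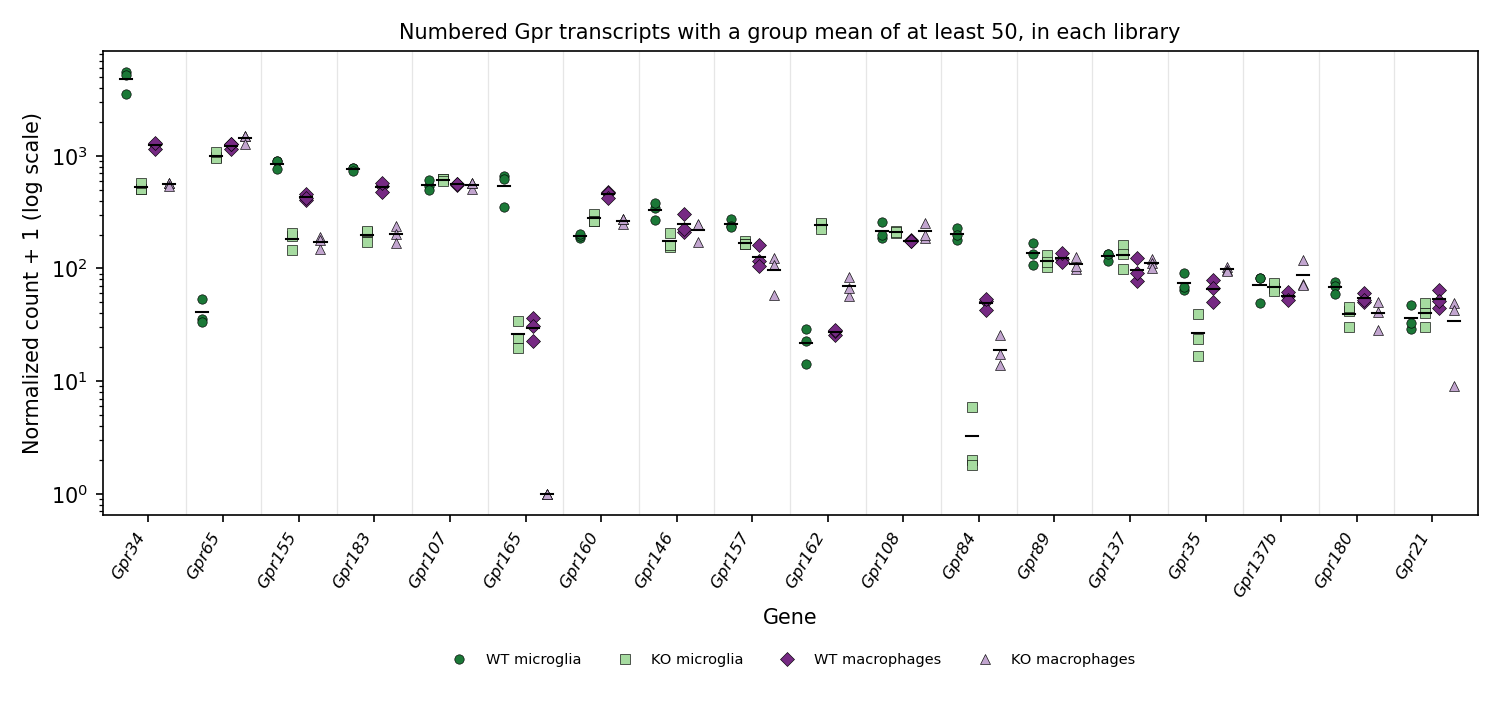
Normalized counts (log axis) of the 18 numbered members with a group mean of at least 50, in each of the 12 libraries by group. Points are libraries and bars are group means. Gpr65 is low in WT microglia only, Gpr165 is high in WT microglia only, and Gpr107, Gpr108, Gpr137 and Gpr89 lie at similar levels in all groups.

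Gpr165 (ENSMUSG00000031210, chrX:96713441-96719388), an orphan, was largely confined to WT microglia among these 4 groups. It was at 658, 621 and 348 across WT microglia, 33.4, 18.7 and 23.3 across KO microglia, 35.5, 21.6 and 29.6 across WT macrophages, and at 0 reads in all 3 KO macrophage libraries. KO microglia and WT macrophages overlapped. The fall was 21.6-fold in microglia (-4.36 ± 0.31, adjusted p = 1.64e-08) and at least 31.3-fold in macrophages, taking 3 reads over the group as the floor (adjusted p = 2.26e-08). Gpr165 is X-linked as well, and its lowest WT microglia value was again in replicate 3. With Ddx3y as a covariate the log2 difference in microglia was -4.17 (adjusted p = 3.57e-07).

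Gpr155 (ENSMUSG00000041762, chr2:73341506-73386572) encodes a lysosomal membrane protein that senses cholesterol. It was at 902, 892 and 769 across WT microglia, 194, 144 and 207 across KO microglia, 455, 404 and 423 across WT macrophages, and 147, 189 and 180 across KO macrophages. WT microglia were highest and the KO groups overlapped at the bottom, the order also seen for Gpr34 and Gpr183. KO cells were 4.70-fold lower in microglia (-2.24 ± 0.13, adjusted p = 2.13e-09) and 2.48-fold lower in macrophages (-1.31 ± 0.13, adjusted p = 3.09e-06).

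Gpr162 (ENSMUSG00000038390, chr6:124858444-124863983), an orphan best known from brain, was at 13.2, 21.9 and 27.9 across WT microglia, 246, 252 and 222 across KO microglia, 24.6, 26.7 and 27.2 across WT macrophages, and 56.0, 83.8 and 66.1 across KO macrophages. The WT groups overlapped, KO macrophages were above them, and KO microglia were above all. It rose 11.4-fold in KO microglia (3.51 ± 0.24, adjusted p = 8.77e-09) and 2.62-fold in KO macrophages (1.34 ± 0.24, adjusted p = 0.000569). The neuronal marker sums given above were higher in the KO groups too, and their part in the rise of Gpr162 was not tested.

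Gpr160 (ENSMUSG00000037661, chr3:30855950-30897192), an orphan, was at 186, 192 and 200 across WT microglia, 301, 264 and 265 across KO microglia, 480, 463 and 423 across WT macrophages, and 250, 273 and 274 across KO macrophages. The 2 KO groups overlapped at a level between the WT groups. It rose 1.44-fold in KO microglia (0.52 ± 0.09, adjusted p = 0.000273) and fell 1.71-fold in KO macrophages (-0.77 ± 0.09, adjusted p = 1.38e-05).

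Of the remaining numbered orphans above a group mean of 50, Gpr146 fell from 331 ± 59.2 to 174 ± 28.9 in KO microglia (-0.92 ± 0.18, adjusted p = 0.000771), and WT and KO macrophages were at 246 ± 50.8 and 220 ± 43.4 (adjusted p = 0.541). Gpr157 averaged 248 ± 21.8, 167 ± 5.7, 127 ± 30.4 and 95.9 ± 34.1 in WT microglia, KO microglia, WT macrophages and KO macrophages. It was lower in macrophages than in microglia in WT cells (-0.99 ± 0.23, adjusted p = 0.00273), and neither KO comparison passed (adjusted p = 0.0574 and 0.15). Gpr21 averaged 32.8 to 52.1, passed in no comparison, and shares 74 exonic bases with Rabgap1 on the same strand, so its reads are uncertain.

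Numbered members that never averaged 50 also differed between KO and WT microglia. Gpr176, an orphan of the circadian clock, had no read in WT microglia and averaged 24.1 ± 5.1 in KO microglia, at least 22.8-fold higher (adjusted p = 2.86e-07). It was at 7.05 ± 2.8 and 13.0 ± 3.5 in WT and KO macrophages (adjusted p = 0.146). Gpr85, a highly conserved orphan of the brain, also had no read across WT microglia and averaged 13.0 ± 4.4 across KO microglia, at least 12.6-fold higher (adjusted p = 3.11e-05), and rose from 2.97 ± 3.0 to 26.0 ± 6.3 across KO macrophages (2.99 ± 0.53, adjusted p = 0.000542). Gpr19 rose from 3.96 ± 2.7 to 18.2 ± 3.0 in KO microglia (2.13 ± 0.46, adjusted p = 0.00139) and was at 13.8 ± 2.8 and 12.1 ± 3.6 in WT and KO macrophages (adjusted p = 0.769). Like Adgrb1, these 3 genes are known from neurons, and the part of the neuronal marker difference in them was not tested.

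Among the multi-pass proteins of the Golgi, lysosome and other inner membranes, Gpr107, Gpr108, Gpr137 and Gpr89 had similar means in all groups. Of the 8 such proteins tested, Gpr155 and Gpr180 fell in KO microglia and Gpr155 alone fell in KO macrophages, beside 20.6% and 15.4% of all genes. None rose in either comparison, beside 21.9% and 16% of all genes. Gpr180 went from 67.5 ± 8.7 to 38.3 ± 7.8 in KO microglia (-0.81 ± 0.24, adjusted p = 0.0118), a call that was lost without KO microglia replicate 1 (-0.64, adjusted p = 0.0628). Group means of Gpr107 ran from 548 to 615, those of Gpr108 from 175 to 213, those of Gpr137 from 96.5 to 131 and those of Gpr89, the Golgi pH regulator, from 109 to 136. Gpr137b ran from 56.4 to 86.3 and is uncertain because of the copy Gpr137b-ps. Gpr137c averaged 9.50 to 20.3 and shares 159 exonic bases with Txndc16, whose mean level was 523.

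WT macrophages differed from WT microglia in 22 of the 36 tested members, 12 higher and 10 lower in macrophages, against 39.4% of all genes (19.2% higher and 20.2% lower). Their libraries did not overlap for 23 members, against 53.9%. This comparison shares the WT microglia libraries with the microglia KO comparison, so the values are given side by side and no overlap is read from them. Adgrg1 was at a log2 difference of -7.55 with origin and -8.68 with KO, Gpr165 at -4.16 and -4.36, Gpr84 at -2.03 and -6.19, Gpr34 at -1.91 and -3.14, Gpr155 at -0.99 and -2.24, and Gpr183 at -0.54 and -1.96. On the higher side, Gpr65 was at 4.95 and 4.65, Gpr132 at 4.66 and 3.31, Adgre5 at 3.71 and 5.84, Gpr176 at 2.94 and 4.63, Gpr160 at 1.24 and 0.52, and Adgre4 at -0.83 (adjusted p = 0.0719) and 5.48. Adgre4 was therefore low in both WT groups, while Gpr65 was already high in WT macrophages. Gpr137c was called higher in WT macrophages (1.02 ± 0.35, adjusted p = 0.0314), and the call was lost without WT microglia replicate 1 or 2 or WT macrophage replicate 1 or 3 (0.85, 1.00, 1.02 and 0.85, adjusted p = 0.113, 0.0707, 0.0776 and 0.123). The Gpr137c call was also lost with no filter on low values (adjusted p = 0.0851). Gpr85, at least 2.47-fold higher (adjusted p = 0.0164), lost its call without WT macrophage replicate 2 (log2 difference 1.17, adjusted p = 0.0904), with pseudocount 5 (adjusted p = 0.123) and with limma voom (adjusted p = 0.0531).

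KO macrophages and KO microglia, which share no library with the WT comparison of origin, differed in 12 tested members, 6 higher and 6 lower in macrophages, against 10.5% of all genes (5.45% higher and 5.05% lower), and 19 had libraries that did not overlap, against 27.1%. The members' median absolute log2 difference was 0.75, against 1.01 between the WT groups, and for all genes 0.22 against 0.39. Those higher in KO macrophages were Adgrg6 (2.97 ± 0.60), Adgrl3 (2.91 ± 0.42), Gpr84 (2.73 ± 0.39), Adgre5 (2.09 ± 0.25), Gpr35 (1.98 ± 0.27) and Gpr65 (0.51 ± 0.14). Those lower were Gpr165 (at least 26.4-fold), Adgra3 (-4.42 ± 0.41), Gpr162 (-1.81 ± 0.24), Adgrl2 (-1.78 ± 0.18), Adgrg1 (-1.49 ± 0.43) and Gpr157 (-0.87 ± 0.23). Adgra3, Adgrl2 and Gpr165 thus kept a lower level in macrophages in both genotypes. Adgrg1 and Gpr157 were also called lower in both, with KO calls that some alternatives lost. By contrast, Gpr34, Gpr183, Gpr155 and Gpr160 differed by origin in WT cells and had adjusted p from 0.76 to 0.949 in KO cells. The calls of Gpr65 and Gpr157 were lost without single libraries, and that of Gpr157 also with Ddx3y, high in all KO microglia pools and in 1 KO macrophage pool, as a covariate (-0.61, adjusted p = 0.193) and with only the 2 KO groups in the fit (adjusted p = 0.076). For Gpr65 these were KO microglia replicates 1, 2 and 3 and KO macrophage replicates 1 and 2 (log2 difference 0.49, 0.48, 0.56, 0.47 and 0.47, adjusted p = 0.117, 0.12, 0.0582, 0.055 and 0.104), and for Gpr157 KO microglia replicates 1, 2 and 3 (-0.84, -0.88 and -0.88, adjusted p = 0.0801, 0.0605 and 0.0636).

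**Figure D4:**
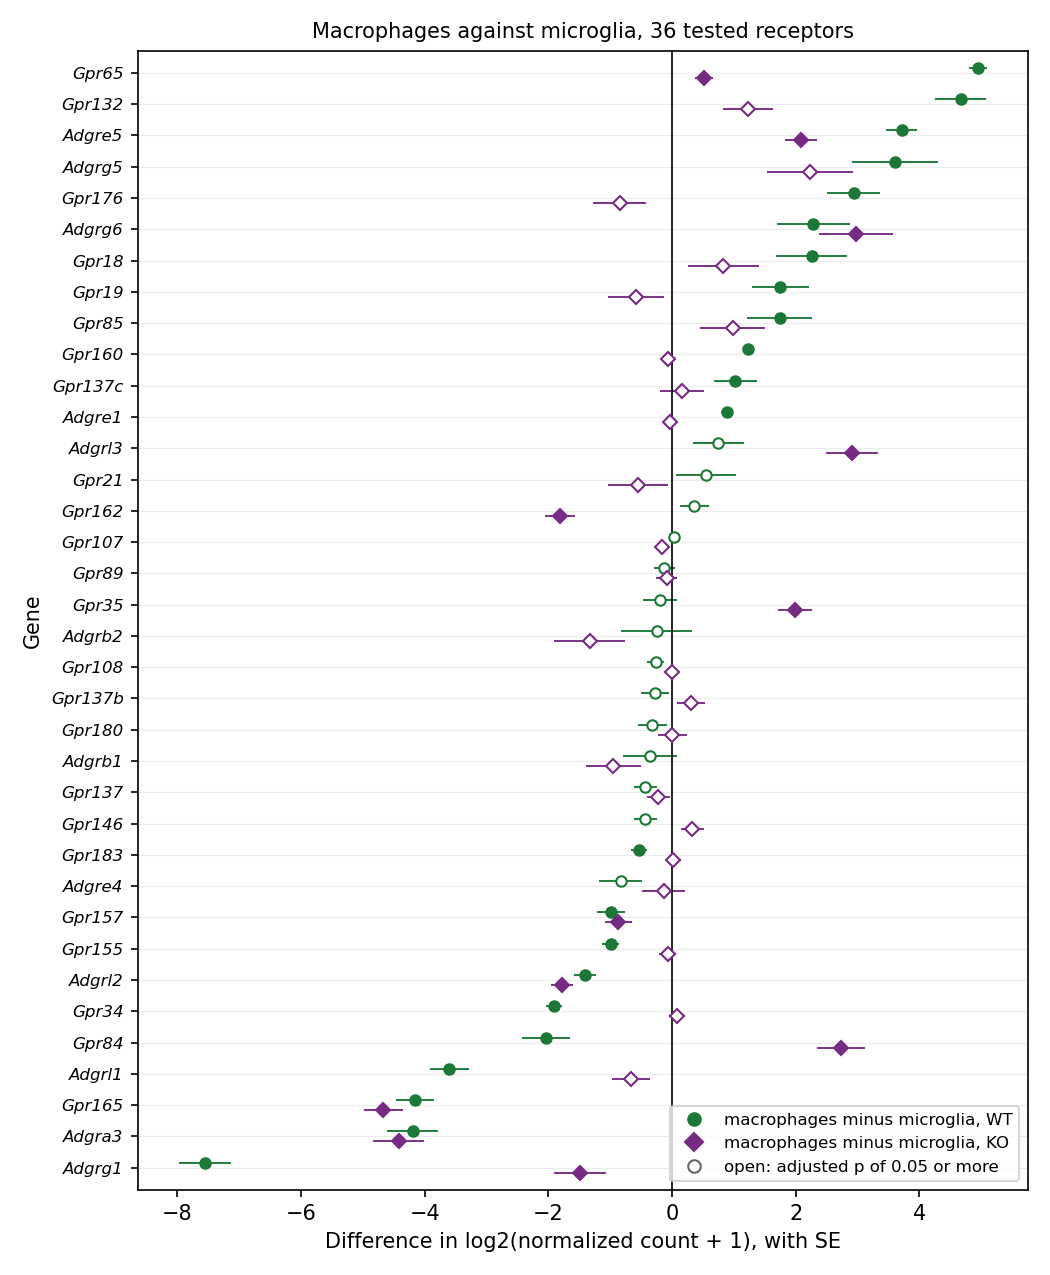
Log2 difference between macrophages and microglia, with its standard error, for the tested members in WT and in KO cells (limma). Open symbols mark an adjusted p of 0.05 or more. Adgra3, Adgrl2 and Gpr165 lie to the low side in both genotypes, Gpr84 changes side, and Gpr34 is low in WT cells and near 0 in KO cells.

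Ligands of the members, and enzymes that make or remove them, formed a list of 25 symbols, of which 21 matched a gene in the deposited table and 8 were tested. In KO microglia 3 were higher and 2 lower, beside 21.9% and 20.6% of all genes, and in KO macrophages 3 were higher and 1 lower, beside 16% and 15.4%. Cd55, the complement regulator that binds the Adgre5 protein, averaged 0.69 ± 1.2 in WT and 606 ± 54.1 in KO microglia (log2 difference 8.70, adjusted p = 1.08e-08), and 2.18 ± 2.0 and 51.3 ± 27.5 in WT and KO macrophages (4.14, adjusted p = 9.28e-05). Receptor and ligand transcripts were thus both higher in KO than in WT cells of each origin. Among KO cells, Adgre5 had its higher level in macrophages and Cd55 in microglia, although Adgre5 rose by the larger fold in microglia. Tgm2, whose transglutaminase binds the Adgrg1 protein, fell from 375 ± 41.8 to 8.22 ± 5.0 in KO microglia (-5.49, adjusted p = 7.82e-10) and from 172 ± 10.3 to 74.8 ± 22.3 in KO macrophages (-1.23, adjusted p = 0.00627). Abhd12, the main brain hydrolase of lysophosphatidylserine, fell from 2707 ± 241 to 1860 ± 109 in KO microglia (-0.54, adjusted p = 0.000194). Psap and Hsd3b7 rose in KO macrophages, Psap from 6936 ± 611 to 12261 ± 1133 (0.82, adjusted p = 1.26e-05) and Hsd3b7, an enzyme of oxysterol breakdown, from 118 ± 6.0 to 153 ± 18.8 (0.37, adjusted p = 0.0371).

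Of the G protein alpha subunits, 10 were tested, with 2 higher and 4 lower in KO microglia (all genes 21.9% and 20.6%) and 2 each way in KO macrophages, near the shares of all genes (16% and 15.4%). Gna15, a myeloid subunit of the Gq class, fell from 1235 ± 97.5 to 86.2 ± 16.4 in microglia (-3.84, adjusted p = 2.86e-12) and from 665 ± 23.4 to 195 ± 26.5 in macrophages (-1.77, adjusted p = 9.91e-08). Gnas, the stimulatory subunit for adenylyl cyclase, fell in KO microglia from 1048 ± 8.6 to 442 ± 64.0 (-1.25, adjusted p = 1.11e-07). Gna13 fell there (-0.65) and Gnaq rose (0.63). Of 10 beta and gamma subunits, 2 were higher and 2 lower in KO microglia, near the shares of all genes just given, and 5 higher and 1 lower in KO macrophages (all genes 16% and 15.4%). Gngt2 fell in KO microglia from 307 ± 12.3 to 74.2 ± 29.3 (-2.10, adjusted p = 1.99e-07).

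The receptor kinases and arrestins, which switch off active receptors, had 5 of 7 tested genes higher and none lower in KO microglia (all genes 21.9% and 20.6%), and 3 higher and 1 lower in KO macrophages (all genes 16% and 15.4%). Arrb2 rose from 1676 ± 90.2 to 2809 ± 241 (0.74, adjusted p = 7.22e-05) and Grk3 from 409 ± 29.7 to 705 ± 122 (0.77, adjusted p = 0.00191) in KO microglia. The RGS proteins, which speed the shut-off of G proteins, had 1 of 9 higher and 5 lower in KO microglia, and 2 lower in KO macrophages, beside the same shares of all genes. Rgs10 fell from 1675 ± 39.8 to 617 ± 27.3 (-1.44, adjusted p = 2.11e-10) and Rgs2 from 2165 ± 62.3 to 935 ± 113 (-1.22, adjusted p = 0.000131) in KO microglia, and Rgs1 fell from 3666 ± 637 to 2239 ± 326 in KO macrophages (-0.71, adjusted p = 0.00139). Of 6 adenylyl cyclases, 2 were higher and 2 lower in each KO comparison, where 42.5% of all genes in microglia and 31.4% in macrophages passed in either direction. Adcy3 rose from 44.0 ± 12.6 to 322 ± 38.7 in KO microglia (2.88, adjusted p = 6.47e-08) and from 9.36 ± 3.3 to 344 ± 46.5 in KO macrophages (5.09, adjusted p = 8.02e-10). Median log2 differences in KO microglia were -0.12 for the alpha subunits, 0.34 for kinases and arrestins and -0.71 for RGS proteins, against -0.01 for all genes tested.

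The 53 members that were not tested were at or near the limit of counting. In 40 of them every library was under 5 normalized counts. The 3 with a library of 10 or more were Gpr82, which reached 19.1, Gpr171, which reached 15.5, and Gpr141, which reached 12.7, each of them in WT macrophages. No member of the Adgrd, Adgrf or Adgrv subfamilies, of the constitutively active Gpr3, Gpr6 and Gpr12 or of the cilium receptor Gpr161 was tested.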

How the data were processed

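The authors deposited 1 table of log2 values for 25904 genes in 12 libraries, from a stranded pico-input total RNA kit per the labels. The tools named in the submitters' processing notes are bcl2fastq, CASAVA and STAR, and the build is GRCm38. For their versions and roles, the counter, annotation release, strand setting and normalization, details were not given in the sources used here. Removing the log2 and the pseudocount of 1 gave whole reads for 100% of 310848 values (tolerance 0.01 reads), so the deposited unit was log2(normalized count + 1). Gene symbols, exons and positions are those of the GENCODE mouse release 21 annotation.

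Genes reaching 10 normalized counts in 3 or more libraries were tested with limma 3.58.1 in R 4.3.3 (eBayes with trend, 4 group means over all 12 libraries), and p-values were Benjamini-Hochberg adjusted over 12519 genes with a threshold of 0.05. Differences are of log2(normalized count + 1) and so understate the change of genes with low values. Alternatives were TMM scaling (trimmed mean of M values), no filter, a filter of 50, pseudocount 5, robust eBayes, only the compared groups, Ddx3y as a covariate and leaving out each library, and, added after seeing the data, limma voom with TMM library sizes on the recovered reads. The procedure was tested on simulated data. Replicate numbers follow accession order and pair nothing. Folds against 0 reads use a floor of 3 reads over the group, and folds on 1 to 3 reads carry exact 95% binomial intervals, which cover only the error of counting, as reads lacking molecular identifiers may repeat 1 molecule.

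Named members are those with a group mean of at least 50 or a call, with every library given where a called absolute log2 difference was at least 1 between KO and WT or between WT origins; of partner genes, up to 4 called ones with a mean of at least 100. The members, partner lists and marker lists were chosen with earlier results of these data known. Of the tested members, 16 share exonic bases with another gene, 13 of them on the opposite strand. Promoter letters came from RefSeq windows for 29 of the 36 tested and 64 of the 89 listed members.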

Additional observations from a re-analysis of the deposited data

Results flagged for a closer look

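For 17 of the 36 tested members, the KO difference in macrophages minus the KO difference in microglia passed its own test (the interaction in limma, adjusted p under 0.05, which 25.8% of all genes passed). A positive value means that KO was higher relative to WT in macrophages than in microglia. It uses all 4 groups, so the gate and the CreER allele enter both differences, and only the macrophages came from transplanted recipients. Members that fell more steeply in KO microglia had positive values, at 6.06 for Adgrg1, 4.76 for Gpr84, 1.99 for Gpr34, 0.93 for Gpr155 and 0.56 for Gpr183. Gpr35 at 2.18 and Gpr146 at 0.76 fell in KO microglia and did not pass in macrophages. Adgrl1, at 2.94, fell in microglia and rose in macrophages, and Gpr160, at -1.29, did the opposite. Adgrl3, at 2.16, rose in both and by more in macrophages.

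Members that rose more in KO microglia had negative values, at -4.44 for Gpr65, -3.79 for Gpr176, -3.43 for Gpr132, -2.34 for Gpr19, -2.17 for Gpr162, -1.62 for Adgre5 and -0.91 for Adgre1, the gated gene. Gpr65, Gpr176, Gpr132 and Gpr19 had a low level in WT microglia and a higher one in WT macrophages. Groups of 3 libraries were not tested for outlying samples.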

How the results depend on the processing

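The planned count models are not reported, since the deposited values are log2, and limma voom on the recovered reads, chosen after seeing the data, stands in their place. Requiring 50 normalized counts left 25 members to test, and with fewer members the number called higher was 8 instead of 16 in KO microglia, 6 instead of 10 in KO macrophages and 4 instead of 12 in WT macrophages against WT microglia, and the number with a negative interaction was 5 instead of 8. Every other count of members called stayed within 1.5 times its value under each alternative run. Called under every alternative that tested them were 24 of 26 members in KO microglia (not Adgrg6 and Gpr180). In KO macrophages these were 14 of 18 (not Adgrb1, Adgrb2, Adgrg5 and Adgrl1). Between WT origins they were 20 of 22 (not Gpr137c and Gpr85), and between KO origins 9 of 12 (not Adgrg1, Gpr157 and Gpr65). Of the interactions they were 13 of 17 (not Adgre5, Adgrl3, Gpr146 and Gpr183). Members that the filter of 50 removed were not tested under it, so for them these counts leave that alternative out. No called difference changed sign. Differences that were not called could also change. Over all members, comparisons and alternatives, 1210 such results stayed alike and 30 passed in the same direction. Another 14 moved without passing, and 1 passed with the opposite sign. The Gpr165 interaction, not called at -0.51 (adjusted p = 0.43), became 1.42 with pseudocount 5 (adjusted p = 0.00976), where KO macrophages hold 0 reads. With limma voom the interactions of Adgre5 and Adgrl3 had adjusted p = 0.0679 and 0.249, and the cause was not tested. Those of Gpr146 and Gpr183 were lost with the Ddx3y covariate (adjusted p = 0.0633 and 0.0672) and without single libraries (adjusted p up to 0.111 and 0.0873). Depth limits members under about 10 normalized counts, which rest on a few reads a library. No paired analysis was possible because the titles carry running library numbers that no 2 groups share.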
